A study of Homo sapiens with 4 samples.

Results

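The peaks described here are those of the Flag-AKT1 E17K list that lie on chromosome 10 and carry the strand label minus. They were taken by these 2 columns alone, and there were 520 of 4838 peaks in that list and of 5646 in both lists. The RIP-seq experiment (RNA immunoprecipitation followed by sequencing) used MDA-MB-231, a human breast cancer cell line, carrying a Flag-tagged AKT1 plasmid that was either wild-type (WT) or the E17K mutant. An anti-Flag immunoprecipitate and an input were sequenced for each plasmid after depletion of ribosomal RNA, so there were 4 libraries with 1 library per condition and no replicates. For every peak a list gives immunoprecipitate reads, control reads, a log odds score of the authors' peak caller and p-values. What the control was is not written in the lists. It was read as the input, which is how the samples are labelled, while a control IgG is mentioned in the description of the series. Total reads per library are missing, so depth is known inside peaks only, and a fold here is the immunoprecipitate reads of a peak over its control reads without scaling. Control counts under 3 were counted as 3 in a fold. Since every region was called by the authors' peak caller, an excess of immunoprecipitate reads is in part what put it in the list, and a gene without a peak may still have had reads.

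AKT1 is a serine/threonine kinase of the PI3K pathway, which binds lipids of the plasma membrane through its pleckstrin homology domain. E17K, a recurrent cancer mutation in that domain, leads to membrane recruitment with less need for PI3K activity. SVIL-AS1 is a long noncoding RNA (lncRNA) gene that is transcribed antisense to SVIL, which encodes supervillin, a membrane-associated actin-binding protein.

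SVIL-AS1 spans chr10:29409534-29487856 (GRCh38.p14) on the plus strand and SVIL spans chr10:29457338-29736936 on the minus strand, in the RefSeq annotation. The 3 peaks of SVIL-AS1 lay between 29420591 and 29425995, outside the SVIL span, and SVIL itself held no peak. The windows around both start sites of SVIL-AS1 are shown, because they give the strand of the transcript and the distance to its peaks. Each is the plus strand of RefSeq, 5′ to 3′, with 100 bases upstream in lower case and the first 50 transcribed bases in capitals.
SVIL-AS1 start at 29409534 (chr10:29409434-29409583): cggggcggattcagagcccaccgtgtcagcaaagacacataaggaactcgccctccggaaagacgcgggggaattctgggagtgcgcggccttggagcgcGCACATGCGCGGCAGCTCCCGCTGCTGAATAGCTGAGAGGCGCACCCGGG
SVIL-AS1 start at 29410243 (chr10:29410143-29410292): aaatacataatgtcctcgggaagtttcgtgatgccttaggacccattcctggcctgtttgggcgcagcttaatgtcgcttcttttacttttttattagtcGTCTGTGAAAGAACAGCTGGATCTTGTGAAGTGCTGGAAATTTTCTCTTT
The upstream start had a GC content of 66% and the downstream start 42%. No peak touched either window. The nearest one began 11057 bp past the upstream start and 10348 bp past the downstream start.

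The strand label of the peaks was opposite to the strand of the genes they lay in. Of the 409 chromosome 10 peaks that overlapped exactly 1 gene span of known strand, 403 (98.5%) lay in a gene of the plus strand. The same held for 2997 of 3010 such peaks (99.6%) in the whole list. No peak of chromosome 10 had the label plus in either list. Among protein-coding genes of chromosome 10, 125 of 333 plus-strand genes (37.5%) held a peak, against 14 of 317 minus-strand genes (4.42%) and 22 of 84 genes (26.2%) whose strand is not in the table used. The label minus thus marked peaks in plus-strand genes, SVIL-AS1 among them, and the minus strand of chromosome 10 was nearly absent from the list. Of the 23 minus-strand genes of any kind with a peak, 19 shared all of their peaks with a gene of the plus strand or of unknown strand. The 6 peaks that lay alone in a minus-strand gene were 2 in PITRM1, a mitochondrial peptidase, 2 in the lncRNA LOC105376392, and 1 each in AP3M1, a subunit of the AP-3 adaptor, and DHX32, a helicase-like protein. They held between 11 and 21 immunoprecipitate reads each. By its label, a peak in overlapping genes of both strands goes with the plus-strand gene. Whether the reads inside a peak were counted by strand is not given in the sources used here. How many of them came from the minus-strand gene is thus not known.

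**Figure D1:**
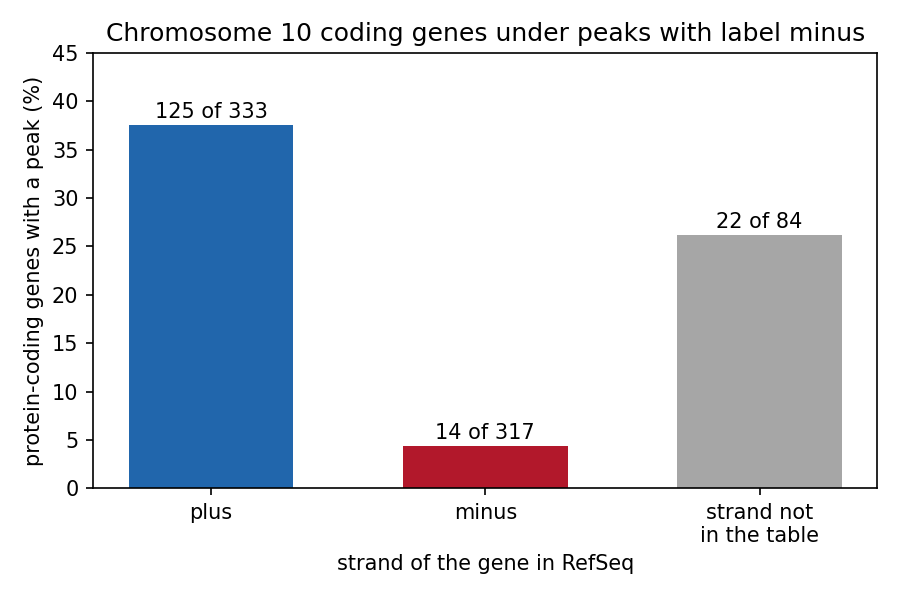
Share of the protein-coding genes of chromosome 10 that held a peak with label minus, by the strand of the gene in RefSeq; each bar carries its count. The plus-strand bar stands at 37.5% and the minus-strand bar at 4.42%.

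The 520 peaks held 31708 immunoprecipitate and 14758 control reads, which is 10.7% of the peaks and 6.54% of the immunoprecipitate reads of the list. A peak had between 11 and 1178 immunoprecipitate reads with a median of 25, and between 0 and 638 control reads with a median of 11.5. The median over the whole list was 39 and 18. These peaks were thus shallower than those of the list in general. Other labels with many peaks were as shallow, with a median of 25 immunoprecipitate reads on chromosome 7 plus and 24 on 8 minus. It was 29 on both 5 plus and 8 plus, while labels such as 9 plus (79) and 1 minus (137.5) were deeper. Their widths were whole multiples of 235 bp, from 235 to 5875 bp, and 191 peaks were 1 bin and 171 peaks 2 bins wide. The bin differed between chromosomes, for example 200 bp on chromosome 5, and widths were not compared between them. The median log odds score was 18.5, against 31.0 in the whole list. Chromosomes 8 minus and 7 plus were near it at 19.6 and 21.6, while 8 plus and 5 plus had 40.2 and 46.4. The score was below 0 in 73 of the 520 peaks, while 6.90% of the list had such a score. Across the 520 peaks the score followed the density of immunoprecipitate reads per kilobase (Spearman's rho 0.95) and not the fold (rho -0.26) or the width (rho -0.02), where all points come from the same 2 libraries. The score therefore ordered peaks by abundance more than by excess over the control.

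More reads of the immunoprecipitate than of the control were found in 516 of the 520 peaks (99.2%), a share of 99.3% in the whole list. The median fold was 2.31, with quartiles of 1.86 and 3.00, and the median of the whole list was 2.18. The lowest fold was 0.722 and the highest 9.67. A fold of at least 4 was found in 64 peaks (12.3%), against 8.54% of all peaks. This share was 13.6% on chromosome 8 minus, 12.0% on 7 plus and 8.50% on 8 plus. Among the 11 chromosome labels with at least 100 peaks, chromosome 10 minus ranked 2 by median fold. Chromosome 8 minus came first with 359 peaks and a median of 2.34, and chromosome 8 plus, the nearest in size, had 553 peaks and a median of 2.29. Chromosome 7 plus had 658 peaks and a median of 2.26, and chromosomes 5 plus and 11 plus had 768 and 754 peaks and a median of 2.21 each.

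Summed over the peaks, the fold was 2.15 on chromosome 10 and 1.94 in the rest of the list (Fisher's exact test on the reads of both libraries, two-sided, adjusted p = 4.01e-23 over all chromosome labels). The test compares the reads of 2 libraries and not the plasmids. The rest of the list contains the 5 peaks of AKT1, which the plasmid carries, and these held 15.1% of all immunoprecipitate reads at a fold of 1.50. Without them the rest stood at 2.05 (Fisher's exact test, adjusted p = 5.06e-05), so the excess on chromosome 10 was smaller but kept its direction. Depth moved with the fold as well. Peaks with fewer than 25 reads of both libraries together had a median fold of 2.80 on chromosome 10 and 2.83 elsewhere. Those with 25 to 50 reads had 2.18 and 2.31, and those with 50 to 100 reads had 2.31 and 2.12. With 100 to 200 reads the medians were 2.05 and 2.07, and with 200 reads or more 2.07 and 2.02. Chromosome 10 was thus the lower one in 3 of these 5 classes. The part of depth in the higher median was not tested.

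**Figure D2:**
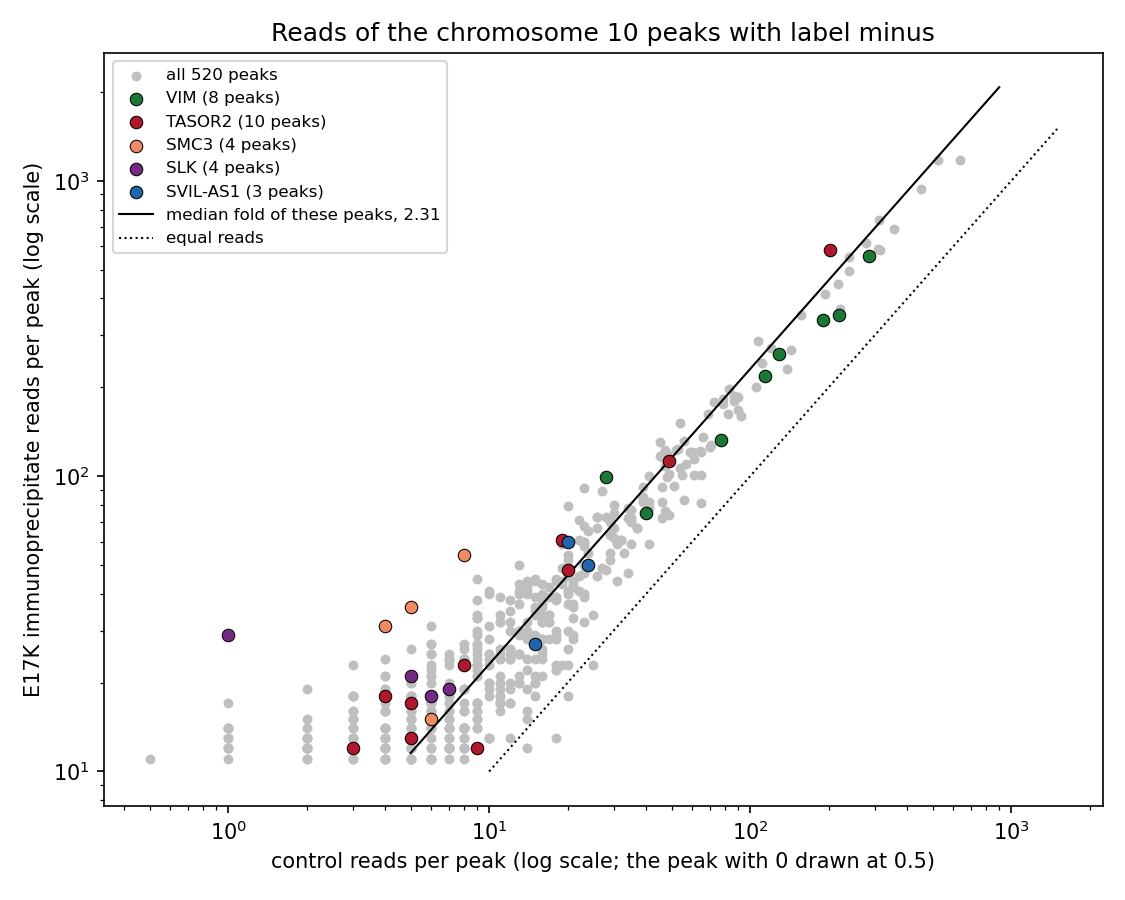
Immunoprecipitate reads against control reads of each of the 520 peaks, both on log scales, with the peaks of 5 genes coloured. The solid line is the median fold of 2.31 and the dotted line marks equal reads. The VIM peaks sit among the deepest and mostly below the median line, SMC3 and SLK have peaks far above it at low counts, and the SVIL-AS1 peaks lie on both sides of it.

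Of the 520 peaks, 506 (97.3%) overlapped a RefSeq gene span by at least 1 bp, introns included. They fell in 181 genes, of which 161 were protein-coding, 18 were lncRNA genes and the others pseudogenes. A single span was hit by 456 peaks, 2 spans by 48 and 3 spans by 2. There was 1 peak in 61 of the genes, and the most were the 21 of PDCD11, a factor of ribosomal RNA processing. None of the 60 miRNA hairpins and none of the 42 small nucleolar RNA genes of the chromosome lay under a peak. The 14 remaining peaks all began past the higher coordinate of the span of a plus-strand or unknown-strand gene that held peaks itself, taking the nearest such gene before each. The distance was 508 to 4268 bp for all but 1 of them, at 13357 bp past CDC123. The deepest was at chr10:17238896-17240070 with 367 immunoprecipitate and 220 control reads, 1303 bp past VIM.

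The immunoprecipitate reads were concentrated in few transcripts. The 10 genes with most of them held 61 of the peaks and 36.4% of the reads of the 520. VIM, which encodes the intermediate filament protein vimentin, came first with 2032 immunoprecipitate and 1083 control reads in 8 peaks. DDX21, a nucleolar RNA helicase, followed with 2028 and 927 reads in 16 peaks. At nearly the same depth the folds were 1.88 and 2.19, with 95% exact intervals of 1.74 to 2.02 and 2.02 to 2.37, and the difference between these genes was not tested.

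The next spans share their reads with other genes. LIPA, the lysosomal acid lipase, had 2010 and 912 reads, but it lies on the minus strand and its long span takes in the interferon-induced IFIT genes. Its deepest peak, with 1178 and 523 reads, is also the single peak of IFIT2, and that with 616 and 277 reads is the peak of IFIT3. The other 2 peaks, with 200 and 105 and with 16 and 7 reads, lie in IFIT1. In the same way the lncRNA gene C10orf55, with 1851 and 931 reads, shares 1784 and 901 of them with PLAU, which encodes the protease urokinase. The reads of these spans can thus not be given to 1 gene from the positions alone. By the label minus, the peaks in IFIT3 and IFIT1 go with these plus-strand genes and not with LIPA. The strand of IFIT2 and of C10orf55 is not in the table used.

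DDIT4, an inhibitor of mTORC1 that is induced by stress, had a single peak with 1175 and 638 reads and a fold of 1.84. TASOR2, a relative of the TASOR subunit of the HUSH silencing complex, had 899 and 324 reads in 10 peaks and a fold of 2.77. WAC, an adaptor in histone H2B ubiquitination, had 785 and 364 reads, and the glycolytic enzyme PGAM1 had 773 and 401. Of these 10, TASOR2 alone passed the test against the rest of the list.

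**Figure D3:**
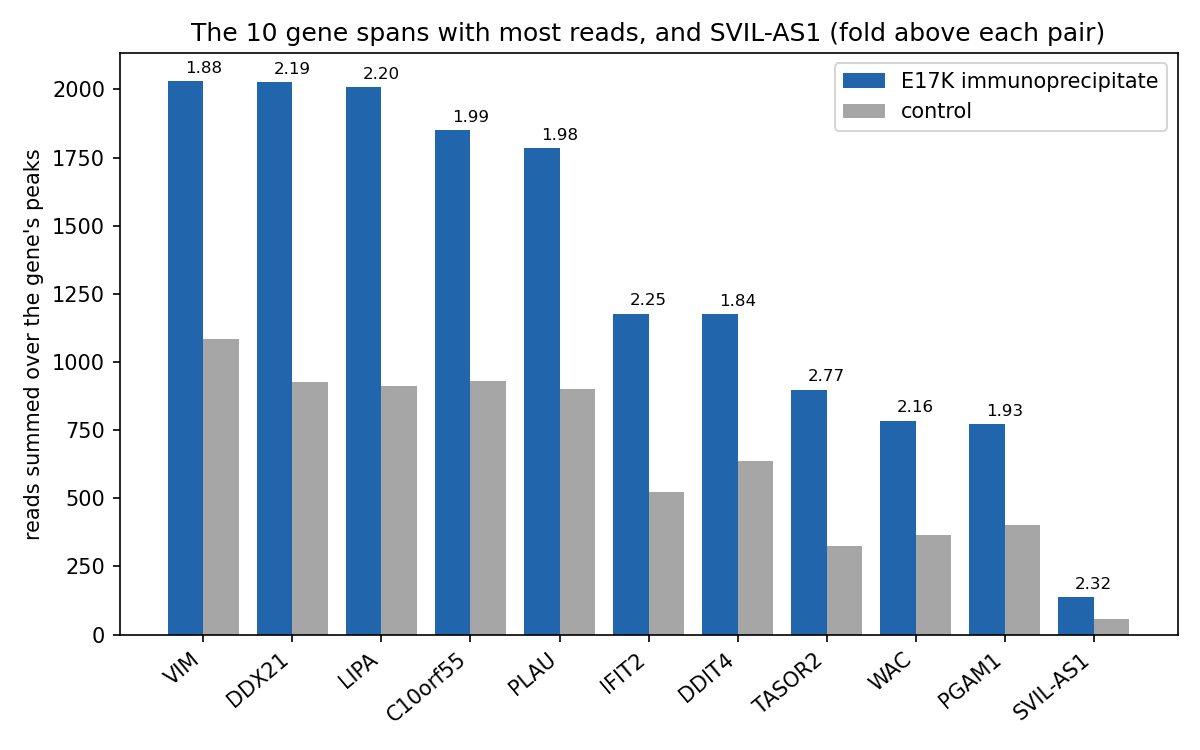
Reads summed over the peaks of the 10 gene spans with most immunoprecipitate reads and of SVIL-AS1, as bars from 0 for the immunoprecipitate and the control, with the fold above each pair. LIPA shares its reads with IFIT2 and C10orf55 with PLAU; SVIL-AS1 has 137 and 59 reads.

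Counted per kilobase of peak, the order changed. The span of VIM-AS1 came first, through a peak that it shares with VIM, and VIM fell to rank 4. By its label minus, this peak goes with VIM, which is on the plus strand. VIM-AS1, an antisense lncRNA gene on the minus strand, has a single peak of 235 bp with 219 and 114 reads at chr10:17229496-17229730, which lies in VIM as well and has the highest log odds score of the 520 peaks, 525. A VIM peak next to it, at chr10:17230201-17230905 with 260 and 129 reads, overlaps the start-site window of VIM-AS1 by 35 bp. The shared stretch is at the upstream end of that window, which begins 250 bases before the VIM-AS1 start. This stretch is shown because a peak in VIM reaches the window there. On the plus strand (GRCh38.p14, chr10:17230201-17230235) it reads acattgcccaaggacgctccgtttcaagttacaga.

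Against the rest of the list, 6 of the 181 genes (3.31%) had more immunoprecipitate reads relative to the control at an adjusted p under 0.05 (Fisher's exact test, Benjamini-Hochberg over all 1936 genes of the list), where 3.00% of all genes did. No gene had fewer, against 0.207% of all genes. At an unadjusted p under 0.05 there were 26 with more, where 12.0% of all genes had more, and 2 with fewer, where 2.01% had fewer. The share of chromosome 10 genes was near that of the list, and the 6 genes are given for themselves.

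TASOR2 had the lowest adjusted p (9.71e-06). Its peak at chr10:5746221-5749980 alone held 582 and 202 reads, a fold of 2.88. Its other 9 peaks had 12 to 113 immunoprecipitate reads and folds from 1.33 to 4.50. BMS1, a GTPase needed to build the small ribosomal subunit, had 555 and 205 reads in 13 peaks and a fold of 2.71 (exact test, adjusted p = 0.00453). Pseudogene copies of BMS1 exist, and how reads of near-identical copies were placed is not stated.

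SMC3, a core subunit of the cohesin ring, had the highest fold of the genes with at least 100 reads of both libraries together, 5.91 with an exact interval of 3.78 to 9.64 (136 and 23 reads, adjusted p = 1.60e-05). Of its 4 peaks, the upstream one had 15 and 6 reads. The following ones had 31 and 4, 54 and 8, and 36 and 5 reads, with folds of 7.75, 6.75 and 7.20. The excess was thus seen in 3 separate peaks toward the 3′ end of the gene.

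SLK, a STE20-like kinase that acts on the cytoskeleton, had 87 and 19 reads, a fold of 4.58 (exact test, adjusted p = 0.0190). One of its 4 peaks, at chr10:104025571-104026275, had 29 immunoprecipitate reads and 1 control read, a ratio of 29 with an exact interval of 4.81 to 1184. CEP55, which acts in the last step of cell division, had 104 and 25 reads and a fold of 4.16 (exact test, adjusted p = 0.0170). LCOR, a corepressor of nuclear receptors, had 233 and 76 reads and a fold of 3.07 (exact test, adjusted p = 0.0199). Without the AKT1 peaks LCOR lost its call (exact test, adjusted p = 0.0802), while the other 5 stayed below 0.05. Of these, BMS1, SLK and CEP55 came close to the threshold (exact test, adjusted p = 0.0434, 0.0462 and 0.0489). TASOR2 and SMC3 stayed far below it (6.31e-04 and 1.26e-04). The share in the list fell to 1.45%.

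**Figure D4:**
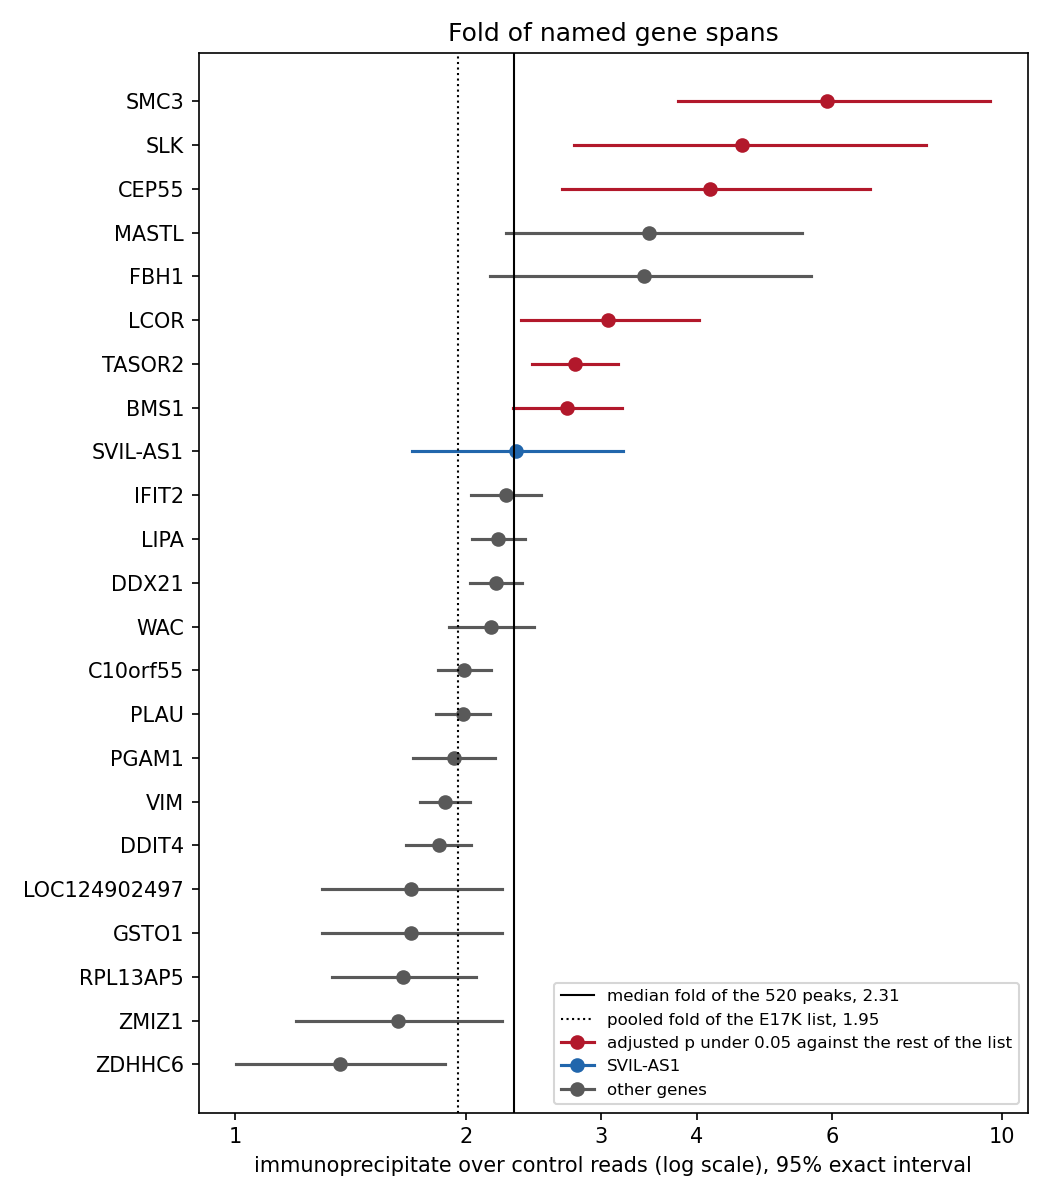
Immunoprecipitate over control reads of named gene spans on a log scale, each point with its 95% exact interval, which covers counting error only. The solid line is the median fold of the 520 peaks and the dotted line the pooled fold of the E17K list, 1.95. The 6 genes in red passed the test, and the interval of SVIL-AS1 spans both lines.

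Among single peaks, 2 of 520 (0.385%) stood above the rest of the list at an adjusted p under 0.05, where 0.0827% of all peaks did. They were the TASOR2 peak with 582 reads (adjusted p = 7.26e-04) and the SLK peak with 29 reads (adjusted p = 0.0488, both Fisher's exact test). None had fewer, against 0.186% of the list. Without the AKT1 peaks the SLK peak no longer passed. At an unadjusted p under 0.05 there were 33 with more and 6 with fewer, where 6.72% and 2.07% of all peaks were. The 5 highest folds were those of this SLK peak, the 3 SMC3 peaks and a peak of ZNF37A, a zinc-finger gene, with 23 and 3 reads (a ratio of 7.67, exact interval 2.32 to 39.9). The control was 0 in 1 peak and 1 to 3 in 43 peaks, so folds at this end of the order rest on few reads.

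At the other end, the lowest folds among the 95 genes with at least 100 reads were found for ZDHHC6, a palmitoyltransferase gene of the minus strand, with 100 and 73 reads (1.37), all shared with the overlapping ACSL5, which encodes an acyl-CoA synthetase. ZMIZ1, a transcriptional coactivator, had 114 and 70 reads (1.63). RPL13AP5, a processed copy of a ribosomal protein gene whose reads may be those of its parent, had 230 and 139 (1.65). GSTO1, a glutathione transferase, had 151 and 89 reads (1.70), all shared with the overlapping LOC124902497. None passed the test. MASTL, the Greatwall kinase of mitosis, and FBH1, a DNA helicase, stood at the high end with 97 and 28 reads (3.46) and with 82 and 24 reads (3.42), which did not pass the test either (exact test, adjusted p = 0.117 and 0.178).

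Set against the median fold of the 520 peaks in place of the pooled reads, the calls fell mostly on the low side (two-sided exact binomial test, Benjamini-Hochberg over all 1936 genes of the list). This median of 2.31 lies above the pooled fold of the same peaks, 2.15. It also lies above the median of those with 200 reads or more, 2.07. Deep genes with a fold usual for deep peaks thus fall below it, and the part of depth in these calls was not tested. SMC3 alone was higher among the 181 genes (exact binomial test, adjusted p = 3.49e-04), where 0.568% of all genes were. There were 9 genes that were lower, where 7.13% of all genes were. VIM had the lowest p (exact binomial test, adjusted p = 6.01e-06), followed by DDIT4 (3.57e-04), PLAU (0.00623) and C10orf55, which shares the PLAU peaks. The others were ZDHHC6, PITRM1 with 34 and 33 reads, RPL13AP5, PGAM1 and ATP5F1C, a subunit of the mitochondrial ATP synthase, with 384 and 214 reads. In 4 peaks the control had more reads than the immunoprecipitate. They lay in PITRM1 (13 and 18 reads), SIRT1, a deacetylase (12 and 14), VCL, which encodes vinculin (18 and 20), and PFKP, a phosphofructokinase (23 and 25).

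By fold, SVIL-AS1 stood near the middle of these peaks, while its 3 peaks had more immunoprecipitate reads than the median of 25. The SVIL-AS1 peaks were also wider, at 705, 1175 and 705 bp, than the median of 470 bp. By immunoprecipitate reads per kilobase they ranked 195, 327 and 452 of 520, in order of position. Its peak at chr10:29420591-29421295 had 50 immunoprecipitate and 24 control reads, a fold of 2.08 and a log odds score of 28.7. It ranked 129 of 520 by immunoprecipitate reads, 316 by fold and 188 by score. The peak at chr10:29421531-29422705 had 60 and 20 reads, a fold of 3.00 and a score of 8.60, with ranks of 113, 122 and 365. This peak also covers the pseudogene PTCHD3P1. The peak at chr10:29425291-29425995 had 27 and 15 reads, a fold of 1.80 and a score of -4.30, with ranks of 240, 408 and 481. One of the 3 peaks was thus above the median fold of 2.31 and the other two were below it.

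Summed over its peaks, SVIL-AS1 had 137 immunoprecipitate and 59 control reads. The fold was 2.32 with an exact interval of 1.70 to 3.21, and it did not differ detectably from the rest of the list (Fisher's exact test, p = 0.291, adjusted p = 0.694) or from the other peaks of chromosome 10 (exact test, unadjusted p = 0.645). Without the peak that covers PTCHD3P1 it was 1.97 (77 and 39 reads). Among the 181 genes SVIL-AS1 ranked 58 by immunoprecipitate reads, 87 by fold, 84 by its best log odds score and 101 by reads per kilobase of peak. It held 0.432% of the immunoprecipitate reads of the 520 peaks.

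Among noncoding transcripts SVIL-AS1 was one of 6 lncRNA genes with a peak outside all protein-coding spans. The others were C10orf55 with 1 such peak of its 4, LOC105376392 with 2 of 6, LINC02680 with 2 peaks (24 and 13 reads), LOC105378287 with 1 (17 and 7 reads) and LINC00839 with 1 (15 and 9 reads). Of these 6, SVIL-AS1 had the most peaks outside protein-coding spans, 3 of 3. The remaining 12 lncRNA genes shared all of their peaks with protein-coding spans.

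A list of 20 genes around SVIL, SVIL and SVIL-AS1 included, was chosen with earlier results of these data known. In it, 5 of the 7 genes on the plus strand held a peak and 0 of the 11 on the minus strand. Among all protein-coding genes of chromosome 10 the shares were 37.5% and 4.42%, and nothing is drawn from the counts of this list. WAC had the most reads. RAB18, a small GTPase of membrane traffic, had 93 and 36 reads (2.58), ZEB1, a repressor of epithelial genes, had 75 and 28 (2.68), and BAMBI, a pseudoreceptor of TGF-beta, had 32 and 13 (2.46). PTCHD3P1 also counts among the 6 genes with a peak, through the single peak (60 and 20 reads) that it shares with SVIL-AS1. With these reads counted under both names, the median fold of the 6 genes was 2.52, and none passed the test. The median was 2.27 for all chromosome 10 genes and 2.13 for all genes of the list.

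Of 28 genes listed for PI3K-AKT, phosphoinositide and phosphatase signalling, 9 held a peak, with a median fold of 2.23 and none past the test. Of all protein-coding genes of chromosome 10, 21.9% held a peak, and 3.31% of the 181 genes with a peak passed the test. This list too was chosen with earlier results of these data known, and nothing is drawn from its counts. DUSP5, a phosphatase of ERK, had 532 and 249 reads (2.14). PPRC1, which was listed here although it is a coactivator of the PGC-1 family, had 411 and 200 (2.06).

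The next lists are read beside all genes, of which 21.9% of the protein-coding ones of chromosome 10 and 37.5% of those on its plus strand held a peak, and 3.31% of the 181 genes with a peak passed the test. Since the lists were chosen with earlier results of these data known, nothing is drawn from their counts. Genes of RNA binding, splicing and translation had a peak in 15 of 26, and in 14 of the 17 on the plus strand. Their median fold was 2.27 and 2 passed the test, BMS1 and TASOR2, of which the latter is known for its relation to a silencing complex and not for these functions. Of 20 genes of the cell cycle and of chromosome maintenance, 12 held a peak, 10 of the 11 on the plus strand among them, at a median fold of 2.47, and SMC3 and CEP55 passed. BUB3, of the spindle checkpoint, had 415 and 166 reads (2.50) and CDC123 had 289 and 126 (2.29). Of 29 genes of adhesion, cytoskeleton and vesicle transport 10 held a peak (median 2.02), and SLK was the one past the test. Mitochondrial and metabolic enzymes had a peak in 15 of 32, with a median of 1.95 and none past the test. LIPA, whose peaks are those of the IFIT genes, and PGAM1 had most of the reads there. The ubiquitin, proteasome and chaperone genes had a peak in 6 of 21 (median 2.20, none past the test). TRIM8, an E3 ligase, had 174 and 87 reads and the deubiquitinase ZRANB1 had 104 and 52.

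Along the genes, the peaks were more frequent toward the 3′ end. Of the 403 peaks in exactly 1 gene opposite to the label, in 112 genes, 125 (31.0%) had their centre in the last 10% of the span and 9 (2.23%) in the first 10%. In the rest of the list 29.4% of 2594 peaks lay there. The peaks of the last 10% held 35.7% of the immunoprecipitate reads of the 403. Their median fold was 2.27 and that of the others 2.33. Exons were not in the table used, and the place is along the span with introns.

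In the WT list chromosome 10 had 1 peak. It lay in PI4K2A, a phosphatidylinositol kinase, at chr10:97675636-97676340 with 11 immunoprecipitate and 26 control reads, a ratio of 0.423 with an exact interval of 0.189 to 0.886, and the median of the WT list was 0.976. The E17K list had a peak over the same place with 128 and 71 reads (1.80). The WT list was called separately on other libraries and gives reads inside its own peaks only, so SVIL-AS1 and the genes above could not be compared between the plasmids.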

How the data were processed

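RNA of anti-Flag immunoprecipitates and inputs of MDA-MB-231 cells was sequenced by the authors. The submitters' processing notes name Bowtie2 2.2.8 and hg18, but the peaks lie in the GRCh38 spans of their genes. The peak caller is not given in the sources used here. The deposited lists hold whole read counts per peak, without normalization, and a log odds score and p-values of the authors' caller.

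Peaks were joined to RefSeq gene spans (GRCh38.p14) by at least 1 bp. The strand of a gene came from the RefSeq promoter table, in which some genes are missing. Reads were compared with the rest of the list by two-sided Fisher's exact tests with Benjamini-Hochberg adjustment over all peaks or genes (threshold 0.05). Intervals of ratios are 95% exact binomial intervals. PCR reads are not independent molecules, so tests and intervals cover counting error only. Python 3.11.15, numpy 2.4.6, pandas 2.3.3, scipy 1.17.1 and matplotlib 3.10.9 were used.

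The named genes were SVIL-AS1, the 10 with most reads, the 5 highest and 5 lowest folds among genes with at least 100 reads, all past the threshold, the 5 peaks with the highest fold, the 2 with most reads of each of 7 gene lists, and noncoding genes outside coding spans. Others were chosen after their values were seen. Members and lists were chosen with earlier results of these data known. Alternatives were other tests, thresholds and filters, leaving out the AKT1 peaks, and other rules for assigning peaks to genes. Some items are not reported here.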

Additional observations from a re-analysis of the deposited data

How the results depend on the processing

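Of 29 alternative values for 7 results, 19 stayed within 1.5 times a count or rank, within the exact interval of a median or on their side of the threshold, and 10 moved. The genes behind a count could change: with peaks of at least 50 reads the called peaks lay in SMC3 and TASOR2, LCOR was lost without the AKT1 peaks, and SVIL-AS1 ranked 87 by fold and 84 by log odds score. The number of called peaks (2) was 1 when each peak was set against the list's median by an exact binomial test, 1 without the AKT1 peaks and 1 at an adjusted p of at most 0.001. It was 5 with the binomial test against the median of the chromosome 10 peaks, 1 with more and 4 with fewer immunoprecipitate reads. The number of called genes (6) was 2 at the stricter threshold, SMC3 and TASOR2, and 10 against that median, of which 9, VIM and DDIT4 among them, had fewer reads. Against the list's median it was 4, with SMC3 and TASOR2 higher and VIM and DDIT4 lower. The number called lower thus depends on the reference, and the pooled fold lies below the median fold. The median fold of the peaks was 2.17 with at least 50 reads. SVIL-AS1 ranked 101 by reads per kilobase, and VIM ranked 4 by reads per kilobase and 2 with peaks in exactly 1 span. For ranks and peak filters the cause was not tested. The binomial test against the chromosome 10 median and the stricter threshold for genes, and the removal of genes on the strand of the label, were chosen after seeing the data. Library totals are missing, so no fold is scaled for depth. No paired analysis was possible because each condition had 1 library.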
